A study of Homo sapiens with 6 samples.

Results

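The arms described are 10 mature microRNAs of the miR-17-92 and miR-106b-25 clusters that lie outside the seed family of miR-25 and miR-92. They were chosen by name, and all 10 had a row among the 1155 mature microRNAs of the deposited table. Small RNA was sequenced in U2OS, an established human osteosarcoma cell line, in 3 libraries with the genotype label LINC00673 and 3 with the label NC. According to the series design, shRNA against the long non-coding RNA LINC00673 was stably introduced into U2OS cells, and these were set against wild-type U2OS cells. The label LINC00673 was taken to mean shRNA cells, with NC as their reference. Sample titles of both groups begin with Lv, and the sources used here do not give whether NC cells carried a control construct, how many shRNA sequences were used or whether the lines were single clones. No age, dose or time applies to these groups. The level of LINC00673 itself was not analysed here, so the depletion was not checked.

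A microRNA selects its target transcripts mainly through its seed, bases 2 to 8 from the 5′ end. The miR-17-92 cluster, also known as oncomiR-1, is cut from 1 primary transcript, MIR17HG, which is activated by MYC, and it carries 4 seed families, those of miR-17, miR-18, miR-19 and miR-92. The miR-106b-25 cluster is its paralogue within the replication gene MCM7 and supplies the seeds of miR-17 and miR-92. Arms with the miR-17 seed are known to repress the cell cycle inhibitor CDKN1A and members of the RB and E2F network, and miR-18a is known for repressing anti-angiogenic transcripts such as THBS1. Each hairpin gives a 5p and a 3p arm, of which 1 usually enters Argonaute far more often than its partner.

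The mature sequences are shown because the arms are compared by seed and because some differ by very few bases. They are RefSeq's (GRCh38.p14), which held all 10 arms, and the seed is in capitals.
hsa-miR-17-5p: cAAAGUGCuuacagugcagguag
hsa-miR-20a-5p: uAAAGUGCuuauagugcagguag
hsa-miR-106b-5p: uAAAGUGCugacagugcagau
hsa-miR-93-5p: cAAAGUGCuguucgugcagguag
hsa-miR-18a-5p: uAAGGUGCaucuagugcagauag
hsa-miR-19a-3p: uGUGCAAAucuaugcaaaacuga
hsa-miR-19b-3p: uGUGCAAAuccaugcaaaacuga
hsa-miR-17-3p: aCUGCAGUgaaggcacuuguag
hsa-miR-106b-3p: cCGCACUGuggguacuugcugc
hsa-miR-93-3p: aCUGCUGAgcuagcacuucccg

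The first 4 share the miR-17 seed, and the following 3 carry the seeds of miR-18 and miR-19. The last 3 are called partner arms here, as the 3p arms of hairpins whose 5p arm carries the miR-17 seed. The name does not mean the scarcer arm, since miR-106b-3p was more abundant than miR-106b-5p in every library. Each has a seed shared by no other row that has a RefSeq sequence. Counted from 1 at the 5′ end, miR-19a-3p and miR-19b-3p differ by the single substitution U11C over 23 bases, and miR-17-5p and miR-20a-5p by C1U and C12U. From miR-17-5p to miR-93-5p there are 4 substitutions, U10G, A11U, C12U and A13C, all outside the seed. How reads matching more than 1 arm were counted is not stated in the sources used here. The split between near-identical arms is therefore uncertain. None of the 10 rows had the same 6 values as another row.

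Of the arms, 6 come from chromosome 13 (GRCh38, GENCODE release 29), where the hairpins MIR17 (91350605 to 91350688), MIR18A (91350751 to 91350821), MIR19A (91350891 to 91350972), MIR20A (91351065 to 91351135) and MIR19B1 (91351192 to 91351278) lie on the plus strand, each exonic in the non-coding gene MIR17HG. They are followed by MIR92A1, and all 6 hairpins fit in 787 bp. The same mature miR-19b-3p is also made by MIR19B2 (chromosome X, 134169671 to 134169766), exonic in the non-coding gene AC002407.1. The other 4 arms come from MIR106B (100093993 to 100094074) and MIR93 (100093768 to 100093847) on the minus strand of chromosome 7, both intronic in MCM7, as is MIR25.

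Levels are CPM as deposited, read counts scaled to a common library total, from which whole reads could be recovered. The listed microRNAs held 265883 to 543144 reads in the LINC00673 libraries and 211242 to 331387 reads in the NC libraries, and 3 reads, taken as the detection floor, equal 3.93 to 10.2 CPM depending on the library. Among lineage markers, the 5 mesenchymal microRNAs summed to 5130 to 6692 CPM in the LINC00673 libraries and to 4788 to 5574 CPM in the NC libraries, though miR-145-5p and miR-214-3p stayed at or under 10 CPM. The 4 measured epithelial markers summed to 2.63 to 16.2 CPM in the LINC00673 libraries and to 12.4 to 23.7 CPM in the NC libraries. Markers of other lineages were read as well, with 2 neural microRNAs, miR-9-5p and miR-128-3p, summing to 3581 to 4212 CPM in the LINC00673 and to 3184 to 4351 CPM in the NC libraries. The 3 measured blood microRNAs summed to 184 to 242 CPM in the LINC00673 and to 153 to 237 CPM in the NC libraries, the 3 of muscle to 34.2 to 40.6 CPM in the LINC00673 and to 37.2 to 73.9 CPM in the NC libraries, and the 1 of liver to 14.8 to 15.8 CPM in the LINC00673 and to 9.63 to 20.3 CPM in the NC libraries. The part of these lineages in the results was not tested. Whether replicates were separate cultures is not in the labels, and a p-value here rests on the spread among 6 libraries that may be technical. In bulk RNA, fewer cells with an arm and less of it per cell cannot be told apart. Ligation in library preparation favours some sequences, so levels of different arms do not give their molar ratio.

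Differences were tested with limma on log2(CPM + 1) over the 810 microRNAs with a mean of at least 1 CPM, all 10 arms among them, with calls made at a Benjamini-Hochberg adjusted p under 0.05. None of the 10 arms passed, and 2 of the 810 microRNAs did (0.247%), both higher in the LINC00673 libraries. An unadjusted p under 0.05 was found for 3 of the 10 arms, namely miR-17-5p, miR-19a-3p and miR-93-3p, against 11.1% of the microRNAs tested. With edgeR's quasi-likelihood test on whole reads, miR-93-3p passed as higher, as did 1.85% of the 810 microRNAs, and miR-19a-3p as lower, as did 0.864% (2.72% in either direction). With DESeq2, miR-19a-3p passed as lower, as did 1.23% of the 810 microRNAs, and no arm as higher, as did 0.617% (1.85% in either direction). DESeq2 gave miR-106b-5p and other scarce microRNAs no adjusted p, so they could not pass. Its shares of the microRNAs it could call are therefore larger than these. The log2 difference was above 0 for 5 arms and below 0 for 5, with a median of -0.10 against 0.06 over the 810 microRNAs. In 4 arms the groups did not overlap, 1 higher and 3 lower, where 15.4% of all microRNAs tested did not overlap, 7.78% as higher and 7.65% as lower. With 10 arms these counts are small, and nothing particular to the clusters is read from them.

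**Figure D1:**
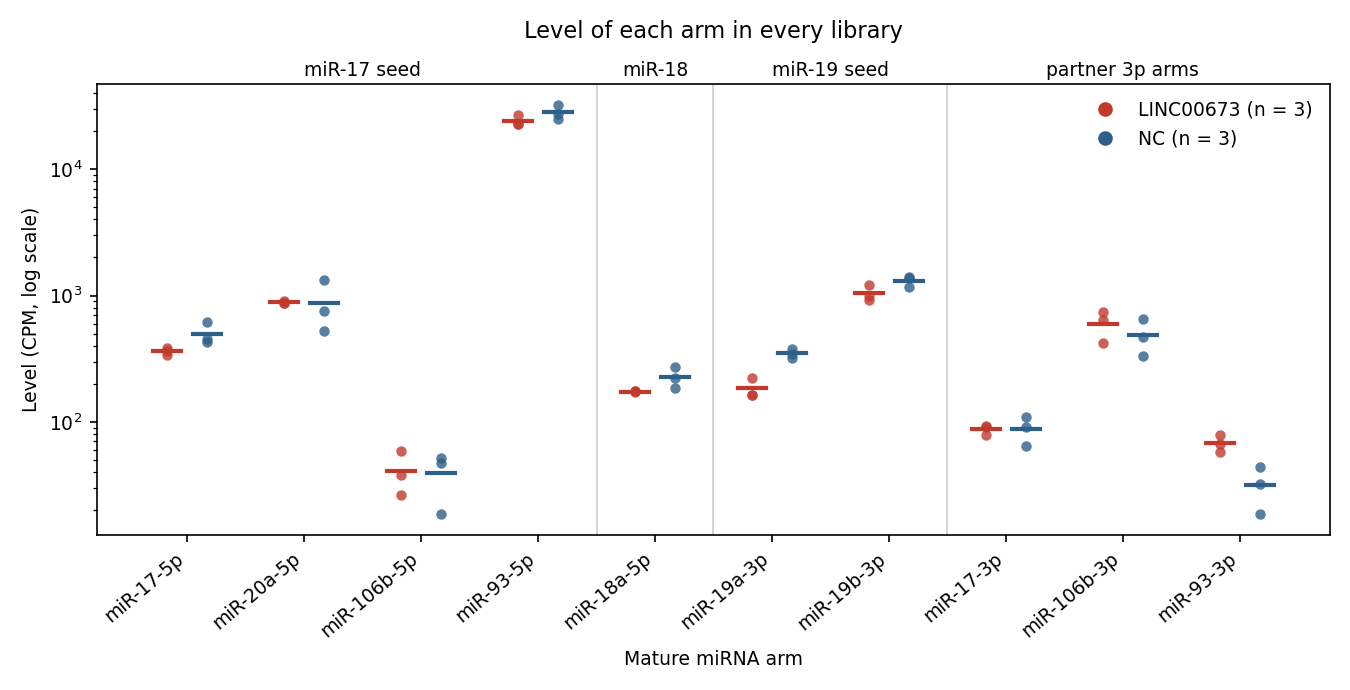
Level of each of the 10 arms in CPM (log scale), with 1 point per library, LINC00673 libraries left of NC libraries and a bar at the group mean (n = 3 each). The groups are apart for miR-17-5p, miR-18a-5p and miR-19a-3p, where the LINC00673 libraries are lower, and for miR-93-3p, where they are higher.

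Among the arms with the miR-17 seed, hsa-miR-93-5p held nearly all reads. Its level was 26924, 22551 and 22677 CPM in LINC00673 replicates 1, 2 and 3, and 32405, 27430 and 24810 CPM in NC replicates 1, 2 and 3. It was the 7th most abundant microRNA of the table. LINC00673 replicate 1 lay inside the range of the NC libraries, and the log2 difference was -0.23 ± 0.15 (limma standard error, as for every ± after a log2 difference; adjusted p = 0.628). Without NC replicate 1 it was -0.12 in limma and -0.00022 in edgeR, against -0.12 in edgeR with all libraries. Over 30 alternative fits it ran from -0.31 to -0.00022 and never passed.

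The founding member of the seed family, hsa-miR-17-5p, was lower in every LINC00673 library than in any NC library. It stood at 384, 361 and 338 CPM in the LINC00673 libraries and at 451, 616 and 426 CPM in the NC libraries. The log2 difference of -0.45 ± 0.21 did not pass (limma adjusted p = 0.418), and edgeR and DESeq2 gave adjusted p-values of 0.538 and 0.211. Without NC replicate 2, the highest library, it was -0.28 in limma and -0.20 in edgeR, against -0.36 in edgeR with all libraries. With any other library left out it lay between -0.55 and -0.33 over both tools.

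Its sister arm hsa-miR-20a-5p comes from a hairpin that starts 460 bp downstream of MIR17 in the same transcript. It was at 899, 866 and 876 CPM in the LINC00673 libraries and at 523, 761 and 1326 CPM in the NC libraries. The LINC00673 values all fell inside the NC range. The coefficient of variation was 1.93% in the LINC00673 and 47.4% in the NC libraries. The NC values were further apart than counting error, with 95% Poisson intervals of 461 to 592, 667 to 864 and 1198 to 1464 CPM in replicates 1, 2 and 3, where such intervals cover counting error only. In LINC00673 replicates 1, 2 and 3 the intervals were 806.5 to 999.8, 800.5 to 935.8 and 810.7 to 944.9 CPM. Each is wider than the spread of the LINC00673 values, so the 1.93% is not read as an unusually even level. The log2 difference was 0.12 ± 0.24 (limma adjusted p = 0.933). It was -0.19 without NC replicate 1, and 0.58 in edgeR without NC replicate 3, where the arm passed as higher (adjusted p = 0.0466, against 0.89 in edgeR with all libraries and a range of 0.0466 to 0.995 over 30 alternative fits). That run called 36 of 806 microRNAs as higher, the most of any alternative, and its median log2 difference was 0.156.

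The 5p arm of MIR106B, hsa-miR-106b-5p, was scarce. It was at 26.3, 59.3 and 38.0 CPM in the LINC00673 libraries and at 18.6, 51.4 and 47.4 CPM in the NC libraries, on 10 to 44 reads in the LINC00673 and 9 to 16 reads in the NC libraries. The groups overlapped over most of their range, and the log2 difference was 0.12 ± 0.43 (limma adjusted p = 0.957).

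The 4 arms with the miR-17 seed summed to 28233, 23838 and 23929 CPM in the LINC00673 libraries and to 33398, 28859 and 26610 CPM in the NC libraries. This sum follows miR-93-5p, which supplied most of it. Without miR-93-5p the sum was 1310, 1286 and 1252 CPM in the LINC00673 libraries and 993, 1429 and 1800 CPM in the NC libraries, so the groups overlapped either way. Further microRNAs with this seed were nearly unread. The paralogue miR-106a-5p, which differs from miR-17-5p by C1A, was under 3 reads in every library, as was miR-20b-5p.

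The only measured arm with the miR-18 seed, hsa-miR-18a-5p, was at 171, 175 and 176 CPM in the LINC00673 libraries and at 186, 222 and 274 CPM in the NC libraries. All LINC00673 libraries lay below all NC libraries, and the LINC00673 values spanned less than the gap to the lowest NC value. Both the span and the gap were within counting error. The Poisson intervals were 147 to 208 CPM in LINC00673 replicate 3 and 150 to 229 CPM in NC replicate 1, the libraries nearest to each other. The narrow span is therefore not read as an unusually even level. The log2 difference of -0.37 ± 0.24 did not pass (limma adjusted p = 0.628), and edgeR and DESeq2 gave adjusted p-values of 0.753 and 0.36. Without NC replicate 3, the NC library farthest from the LINC00673 values, it was -0.22 in limma and -0.11 in edgeR, against -0.27 in edgeR with all libraries. With any other library left out it lay between -0.50 and -0.25 over both tools.

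Both arms with the miR-19 seed had lower means in the LINC00673 libraries, and hsa-miR-19a-3p had the largest difference downwards of the 10 arms. It stood at 224, 164 and 164 CPM in LINC00673 replicates 1, 2 and 3, on 85, 122 and 125 reads, and at 348, 318 and 379 CPM in NC replicates 1, 2 and 3, on 168, 99 and 112 reads. The groups did not overlap, and the LINC00673 mean was 0.528 times the NC mean. The log2 difference was -0.93 ± 0.23 (limma adjusted p = 0.0571), the 6th smallest p of the 810 microRNAs. It passed as lower in edgeR (-0.83, adjusted p = 0.0298) and in DESeq2 (-0.94, adjusted p = 0.00799). The edgeR call was lost without LINC00673 replicate 1, 2 or 3 (adjusted p = 0.212, 0.369 and 0.537) and was there without NC replicate 1, 2 or 3 (adjusted p = 0.031, 0.0451 and 0.0279). The runs without NC replicate 1, 2 or 3 called 8 of 809, 2 of 805 and 13 of 806 microRNAs as lower. Those without LINC00673 replicate 1, 2 or 3 called 0 of 810, 1 of 809 and 0 of 810 as lower. The loss of calls there was therefore not particular to this arm. Over the 30 alternative fits the difference ran from -1.09 to -0.73, past the threshold in 12 of them, with an adjusted p of 0.00799 to 0.69.

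The more abundant hsa-miR-19b-3p was at 1204, 929 and 987 CPM in the LINC00673 libraries and at 1388, 1368 and 1171 CPM in the NC libraries. LINC00673 replicate 1 lay just above NC replicate 3. The log2 difference of -0.34 ± 0.18 did not pass (limma adjusted p = 0.5), and over the 30 alternative fits it ran from -0.45 without LINC00673 replicate 1 to -0.12 in edgeR without LINC00673 replicate 2. Summed over both arms, the miR-19 seed was at 1428, 1094 and 1151 CPM in the LINC00673 libraries and at 1736, 1686 and 1550 CPM in the NC libraries. All LINC00673 sums lay below all NC sums, which is given as a description without a test.

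Since a ratio within a library does not depend on how that library was scaled, 8 such ratios were set between the groups with two-sided exact permutation tests, for which 0.1 is the smallest p with 3 against 3. The ratio of miR-19a-3p to miR-19b-3p was 0.186, 0.177 and 0.166 in the LINC00673 libraries and 0.25, 0.232 and 0.324 in the NC libraries, without overlap (exact p = 0.1, adjusted over the 8 ratios p = 0.267). The ratio of miR-19b-3p to miR-17-5p was 2.88 ± 0.284 in the LINC00673 and 2.68 ± 0.433 in the NC libraries (SD, n = 3 each, exact p = 0.6). For miR-18a-5p over miR-17-5p the ratio was 0.483 ± 0.0371 in the LINC00673 and 0.472 ± 0.151 in the NC libraries (exact p = 0.8). The ratio of miR-20a-5p to miR-17-5p was 2.34, 2.40 and 2.59 in the LINC00673 libraries, and in the NC libraries it was 1.16 and 1.23 in replicates 1 and 2 and 3.11 in replicate 3. So the NC libraries lay on both sides of the LINC00673 libraries (exact p = 0.4). Of the 8 ratios, 3 did not overlap between the groups, and no share over other ratios was worked out to set beside this. Each of the 3 has miR-19a-3p or miR-92a-3p as numerator. They share values with the differences of those arms and are no separate support for them. The other 5 had an adjusted exact p of 0.64 to 0.8.

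The partner arms had log2 differences above 0 in all 3 cases, that of miR-17-3p not under every alternative. Of these, miR-106b-3p was the more abundant arm of its hairpin. The largest difference upwards of the 10 arms was that of hsa-miR-93-3p. It was at 57.9, 79.5 and 66.9 CPM in the LINC00673 libraries, on 22, 59 and 51 reads, and at 18.6, 32.1 and 44.0 CPM in the NC libraries, on 9, 10 and 13 reads. The groups were apart, with every LINC00673 value above the highest NC value, and the LINC00673 mean was 2.16 times the NC mean. Counting error was wide, with 95% Poisson intervals of 36.3 to 87.6 CPM in LINC00673 replicate 1 and 23.4 to 75.2 CPM in NC replicate 3, the libraries nearest to each other. The log2 difference was 1.15 ± 0.37 (limma adjusted p = 0.182). It passed in edgeR (1.29, adjusted p = 0.0203) but not in DESeq2 (1.16, adjusted p = 0.112). In edgeR it passed without NC replicate 3 (adjusted p = 0.00485) and not without any of the other 5 libraries (adjusted p = 0.0621 to 0.537). The run without NC replicate 3 called 36 of 806 microRNAs as higher. Those without LINC00673 replicate 1, 2 or 3 called 0 of 810, 4 of 809 and 0 of 810 as higher. Those without NC replicate 1 or 2 called 7 of 809 and 5 of 805. The 30 alternative fits put the difference between 0.83 and 1.61, with an adjusted p of 0.00485 to 0.69.

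The partner arm hsa-miR-106b-3p was at 418, 736 and 642 CPM in the LINC00673 libraries and at 335, 472 and 646 CPM in the NC libraries. NC replicate 3 lay above LINC00673 replicates 1 and 3, and the log2 difference was 0.32 ± 0.24 (limma adjusted p = 0.694). With 1 library left out it ran in limma from 0.077 without NC replicate 1 to 0.55 without LINC00673 replicate 1 or NC replicate 3, with 0.15 without LINC00673 replicate 2, and none of these passed. In edgeR it ran from 0.21 without NC replicate 1 to 0.70 without NC replicate 3, where it passed as higher (adjusted p = 0.0351, against 0.399 in edgeR with all libraries and a range of 0.0351 to 0.957 over the 30 alternative fits). In that run 36 of 806 microRNAs passed as higher. The partner arm hsa-miR-17-3p was at 78.9, 92.95 and 90.5 CPM in the LINC00673 libraries and at 64.1, 109 and 91.4 CPM in the NC libraries. The LINC00673 values lay within the NC range, with a log2 difference of 0.02 ± 0.29 (limma adjusted p = 0.988), and 10 of the 30 alternative fits put it below 0.

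**Figure D2:**
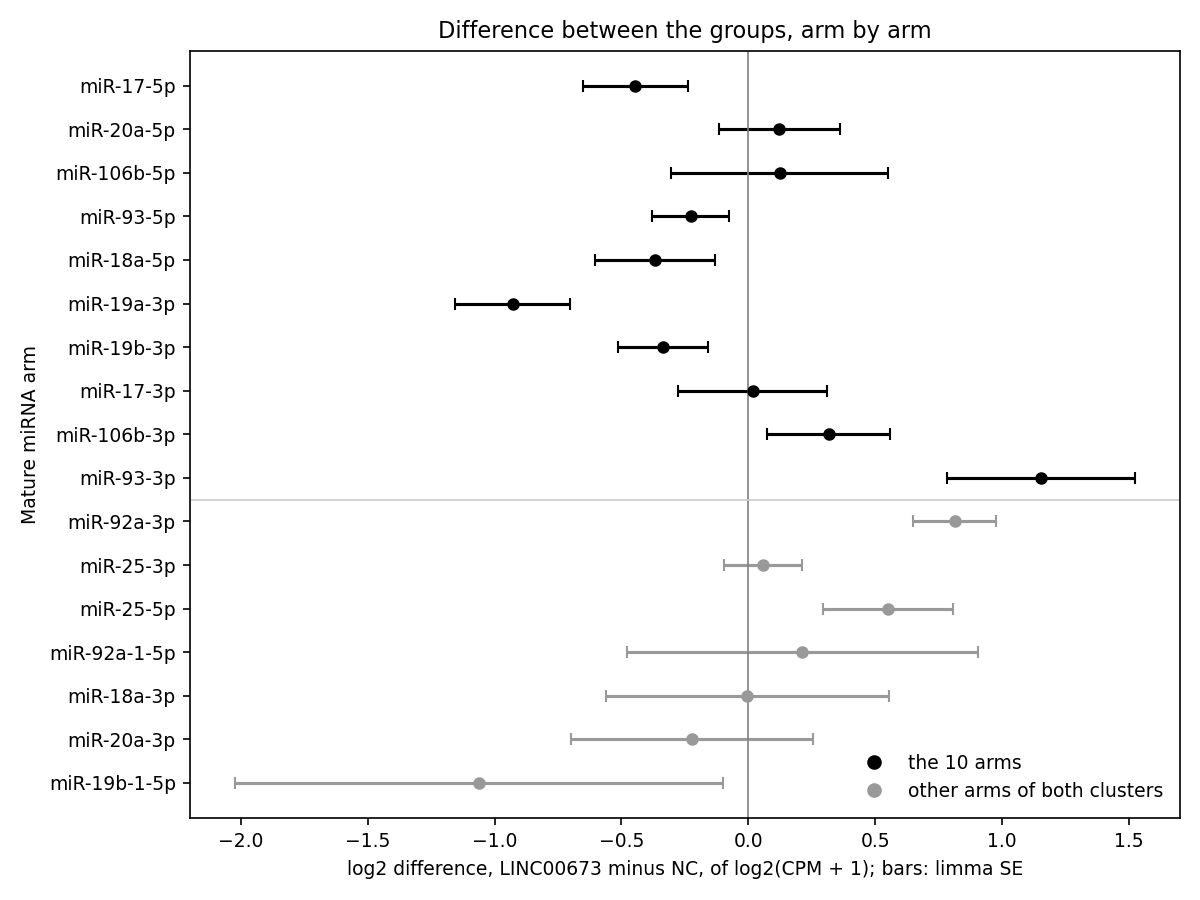
Log2 difference, LINC00673 minus NC, of each of the 10 arms (black) and of 7 other tested arms of both clusters (grey), with the limma standard error as bars, on the scale of log2(CPM + 1). The extremes among the 10 arms are miR-19a-3p at -0.93 and miR-93-3p at 1.15, and of the arms drawn only miR-92a-3p passed limma.

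Ordered by their place in the primary transcripts, the arms of each cluster had log2 differences on both sides of 0. Among the 10 arms, those of miR-17-3p, miR-20a-5p and miR-106b-5p changed sign under some alternatives. Along the miR-17-92 cluster the main arms had log2 differences of -0.45 for miR-17-5p, -0.37 for miR-18a-5p, -0.93 for miR-19a-3p, 0.12 for miR-20a-5p and -0.34 for miR-19b-3p. The last arm of the transcript is miR-92a-3p, of the miR-92 seed, which is known to repress the integrin ITGA5. It was higher in the LINC00673 libraries (0.81, limma adjusted p = 0.0358) and was 1 of the 2 microRNAs that passed, though MIR92A2 on chromosome X yields the same mature sequence. With any 1 of the 6 libraries left out, no microRNA passed limma. Its ratio to miR-19b-3p was 3.59, 4.68 and 4.67 in the LINC00673 libraries and 1.53, 1.95 and 2.42 in the NC libraries. Its ratio to miR-17-5p was 11.3, 12.1 and 13.6 in the LINC00673 libraries and 4.71, 4.32 and 6.64 in the NC libraries. Neither ratio overlapped between the groups (exact p = 0.1 each, adjusted over the 8 ratios p = 0.267). The numerator of both ratios was chosen with its difference already known, so they are no independent support. The median log2 difference was 0.22 over the 4 arms of miR-106b-25 and -0.35 over the 6 arms of miR-17-92. A median weighs scarce and abundant arms alike, and the sums of both clusters had lower means in the LINC00673 libraries. The log2 ratio of the mean sums was -0.22 for miR-106b-25 and -0.29 for miR-17-92, with overlapping groups in both. For miR-106b-25 the sum was 27426, 23426 and 23424 CPM in the LINC00673 libraries and 32777, 27985 and 25548 CPM in the NC libraries, mostly miR-93-5p. The summed level of the 6 arms was 2961, 2589 and 2632 CPM in the LINC00673 libraries and 2961, 3394 and 3668 CPM in the NC libraries, where LINC00673 replicate 1 and NC replicate 1 were level.

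Within MCM7, miR-93-5p had a log2 difference below 0 and the other tested arms above 0, miR-106b-5p and miR-25-3p not in every alternative. For the neighbour miR-25-3p, of the miR-92 seed, the level was 16932 ± 1658 CPM in the LINC00673 and 16293 ± 2032 CPM in the NC libraries (SD, n = 3 each, log2 difference 0.06, limma adjusted p = 0.957). The ratio of miR-93-5p to miR-25-3p was 1.79, 1.25 and 1.28 in the LINC00673 libraries and 1.75, 1.74 and 1.70 in the NC libraries. LINC00673 replicates 2 and 3 lay below the NC libraries and replicate 1 above them (exact p = 0.4). From the same hairpin as miR-25-3p, miR-25-5p was at 160, 271 and 239 CPM in the LINC00673 libraries and at 126, 148 and 176 CPM in the NC libraries (log2 difference 0.55, limma adjusted p = 0.417). The ratio of miR-106b-5p to miR-93-5p was 0.00176 ± 0.000829 in the LINC00673 and 0.00145 ± 0.00076 in the NC libraries (SD, n = 3 each, exact p = 0.7).

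**Figure D3:**
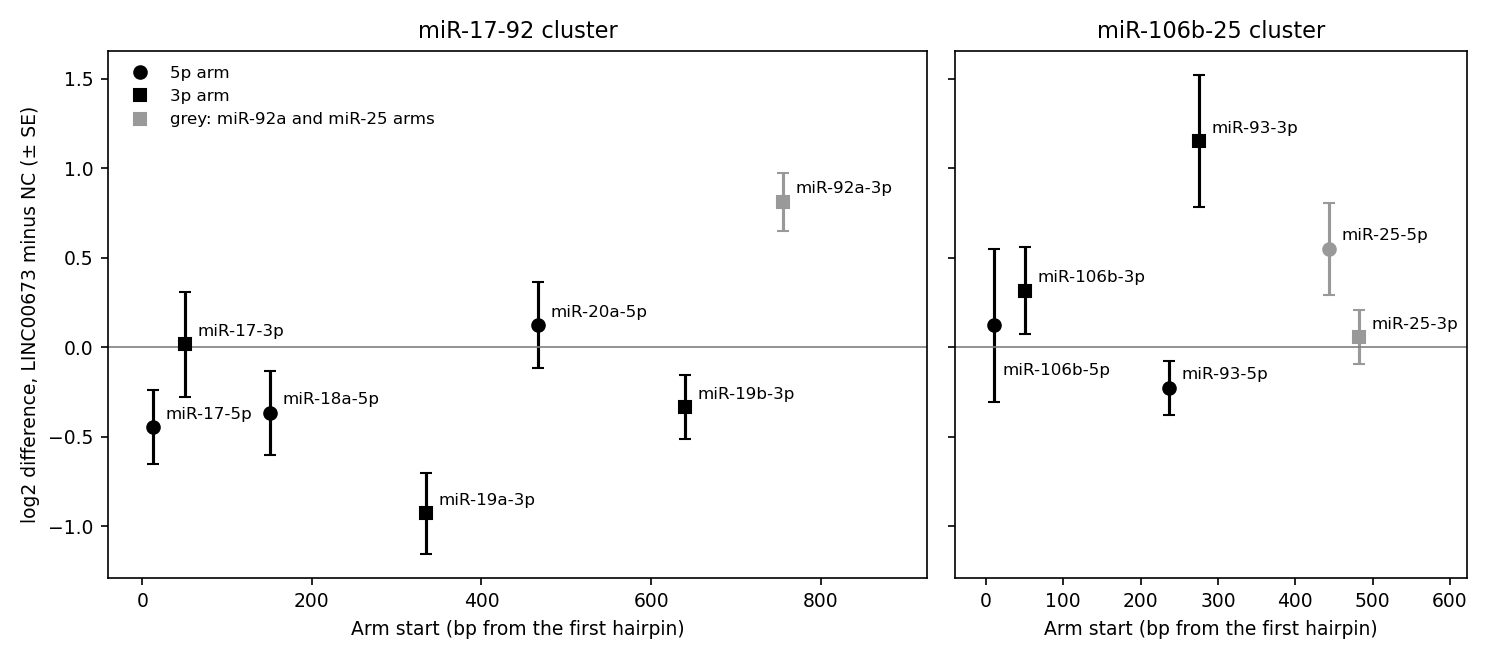
Log2 difference, LINC00673 minus NC, with its limma standard error, against the start of each arm in bp from the first hairpin of its cluster, in the direction of transcription, for arms with a mean of at least 30 CPM. Circles are 5p and squares 3p arms, and the arms of the miR-92 seed hairpins are grey. Points lie on both sides of 0 in both clusters, and those of miR-17-3p, miR-20a-5p, miR-106b-5p and miR-25-3p changed sign under some alternatives.

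Of the list of other cluster arms and miR-17 seed microRNAs, 10 of 20 had a row and 7 were tested. One, miR-92a-3p, passed limma as higher and none as lower. The 4 scarce arms miR-18a-3p, miR-20a-3p, miR-92a-1-5p and miR-19b-1-5p had mean levels of 2.32 to 18.7 CPM over the 6 libraries and log2 differences of -1.06 to 0.21, none of which passed (limma adjusted p = 0.798 to 1). From the miR-106a-363 cluster, the X-linked copy of miR-17-92, only miR-106a-5p and miR-20b-5p had rows, both under 3 reads in each library. miR-19a-5p was under 3 reads as well.

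**Figure D4:**
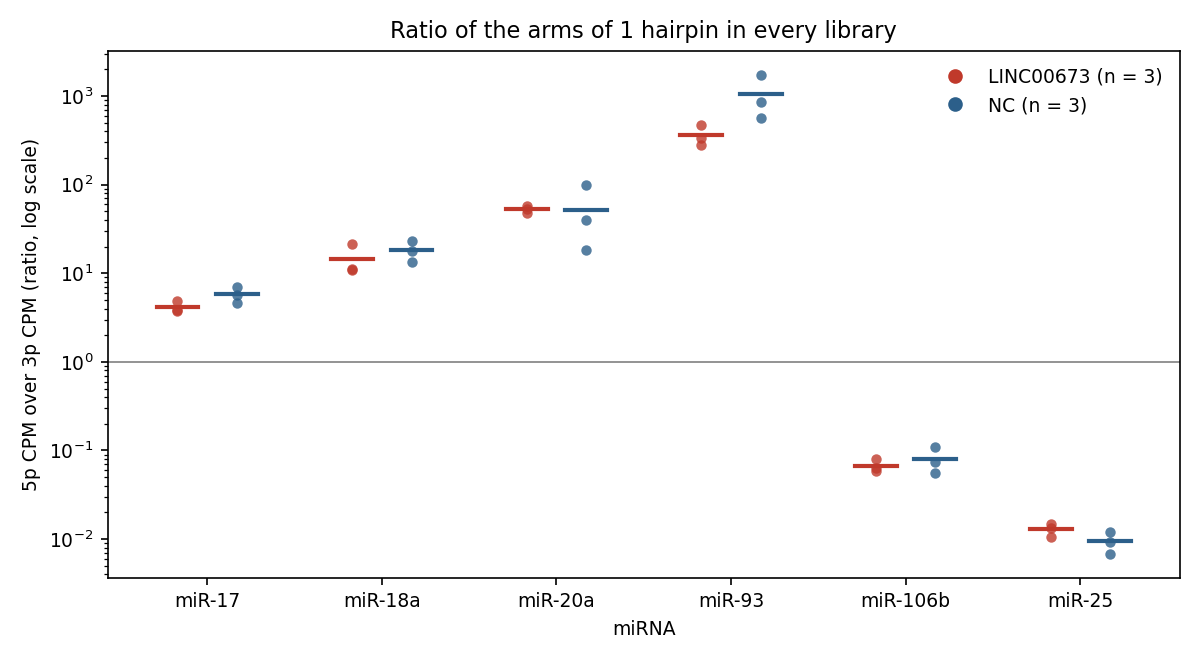
Ratio of 5p to 3p CPM (log scale) of 6 hairpins in every library, with LINC00673 libraries left of NC libraries and a bar at the mean (n = 3 each). The line marks equal levels of both arms. The LINC00673 libraries lie below the NC libraries for miR-93, and the groups overlap for the other 5.

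The balance of the arms was tested over 184 hairpin names with both arms at a mean of at least 1 CPM. No pair passed limma (0%), and 9.78% had an unadjusted p under 0.05. For miR-93 the 5p arm exceeded the 3p arm 465-, 284- and 339-fold in the LINC00673 libraries and 1740-, 854- and 564-fold in the NC libraries. All LINC00673 ratios lay below all NC ratios, as in either direction for 13.6% of the pairs. The 3p arm rested on 22, 59 and 51 reads in the LINC00673 and 9, 10 and 13 reads in the NC libraries, so these ratios are imprecise. They share their 3p values with the miR-93-3p difference given above and are no separate support for it. The log2 difference of the ratio was -1.38 ± 0.42, the 7th smallest p of the 184 pairs (limma adjusted p = 0.343). For miR-17 the 5p arm exceeded the 3p arm 4.87-, 3.88- and 3.74-fold in the LINC00673 libraries and 7.03-, 5.65- and 4.67-fold in the NC libraries. LINC00673 replicate 1 lay within the NC range (log2 difference of the ratio -0.46, limma adjusted p = 0.636).

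For miR-106b the 3p arm was the more abundant arm in every library. It exceeded the 5p arm 15.9-, 12.4- and 16.9-fold in the LINC00673 libraries and 18-, 9.19- and 13.6-fold in the NC libraries. The groups overlapped, with a log2 difference of the 5p to 3p ratio of -0.19 (limma adjusted p = 0.867).

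In base composition the arms ranged from 34.8% GC in miR-19a-3p to 63.6% GC in miR-106b-3p, with 59.1% in miR-93-3p. Across the 10 arms, GC content and the log2 difference had a Pearson r of 0.69 and a Spearman rho of 0.57, while over the 714 tested microRNAs with a RefSeq sequence they were -0.02 and -0.02. All points come from the same 6 libraries, so this is a description only. With the GC trend of each library removed, an alternative chosen after seeing the data, the differences were -0.93 for miR-19a-3p (limma adjusted p = 0.0425, past the threshold) and 1.07 for miR-93-3p (limma adjusted p = 0.158). That fit called 2 of 714 microRNAs as higher and 6 as lower, against 2 and 0 of 810 in the main fit.

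By the distance between centred log2(CPM + 1) profiles over the 6 libraries, the microRNAs of at least 100 CPM nearest to miR-19a-3p were miR-301b-3p, miR-301a-3p and miR-29b-3p, with root mean square distances of 0.14, 0.16 and 0.23 among 163 candidates. The nearest to miR-93-3p were miR-92b-3p, miR-576-5p and miR-92a-3p, at distances of 0.20, 0.28 and 0.31 among 164 candidates. For the first set, miR-301b-3p was at 78.9, 60.6 and 57.7 CPM in the LINC00673 libraries and at 155, 132 and 169 CPM in the NC libraries. For the second, miR-92b-3p was at 231, 244 and 261 CPM in the LINC00673 libraries and at 78.6, 93.1 and 149 CPM in the NC libraries.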

How the data were processed

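Small RNA libraries of U2OS cells were made with the NEBNext small RNA kit from TRIzol RNA, per the labels' protocols. The authors deposited CPM per mature microRNA and library, and the submitters' processing notes name build hg38. The aligner, counter and microRNA release were not given in the sources used here. Dividing each column by its step gave whole reads for 100% of values above 0, within 0.1 read. The denominators held more reads than the listed rows, which took 68.6% to 72.0% of the CPM total. Groups followed the genotype label, and replicate numbers the titles. Fits used limma 3.58.1 with an intensity trend in R 4.3.3 (two-sided), with edgeR 4.0.16 (TMM) and DESeq2 1.42.0 on recovered reads as alternatives. edgeR called 15 higher and 7 lower microRNAs, DESeq2 5 and 10. The limma, edgeR, DESeq2 and arm ratio fits were tested at their main settings on 1 set of simulated counts with all libraries. That simulation used a single spread for all microRNAs, and the alternative settings were not simulated. All 10 arms were named, as were other arms of the clusters, miR-17 seed microRNAs and the 3 nearest profiles to the arm with the smallest p in each direction. The arms, lists and tests were chosen with earlier results of these data known. Same-numbered libraries of both groups did not deviate together (r = 0.03, 0.07 and 0.01), so the main fits used no pairing. This check cannot show that samples were not prepared in pairs. Libraries of 1 group differed beyond sampling noise, least for LINC00673 replicates 2 and 3 (chi-square per degree of freedom 2.37).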

Additional observations from a re-analysis of the deposited data

How the results depend on the processing

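Of the 10 arms, 7 kept the direction of their log2 difference in all 30 alternative fits. The exceptions were miR-17-3p, miR-20a-5p and miR-106b-5p. For miR-17-3p the value was -0.0097 rescaled to the listed microRNAs, -0.071 with quantile normalization, -0.023 without the 10 most abundant microRNAs in the scaling, -0.15 with reads thinned to equal depth, -0.019 with LINC00673 replicates 2 and 3 averaged and -0.086 with the GC trend removed. For miR-20a-5p it was -0.013 with quantile normalization. With 1 library left out, values in limma and in edgeR ran from -0.19 to 0.19 and from -0.078 to 0.30 for miR-17-3p, from -0.19 to 0.48 and from -0.14 to 0.58 for miR-20a-5p, and from -0.33 to 0.40 and from -0.094 to 0.56 for miR-106b-5p (edgeR also -0.045 without LINC00673 replicate 2). The difference of the miR-106b arm ratio ran from -0.41 to 0.055 in limma. The cause was not tested.

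Of the 10 arms, 1 passed as lower, miR-19a-3p each time, with a pseudocount of 5, no filter, scaling without the 10 most abundant microRNAs, the GC trend removed and DESeq2. In edgeR 1 passed as higher and 1 as lower, also with DESeq2 size factors, no filter or the replicate block. With 1 library left out, 0 passed limma, and in edgeR 0 to 3 passed as higher and 0 to 1 as lower. With the replicate block limma changed no call (2 higher, 0 lower).

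Over all microRNAs, against 2 higher and 0 lower, calls were 0 and 0 with a pseudocount of 0.5, a minimum of 10 CPM, rescaling to the listed microRNAs, quantile normalization, no intensity trend, thinned reads or averaged replicates. They were 3 and 5 with a pseudocount of 5, 4 and 7 with no filter, 2 and 1 with median-of-ratios scaling, 2 and 3 without the top 10 in the scaling, and 2 and 6 with the GC trend removed. In edgeR they were 15 and 7, 9 and 9 with DESeq2 size factors, 9 and 7 with no filter and 14 and 7 with the replicate block, and in DESeq2 5 and 10. With 1 library left out they were 0 and 0 in limma, and in edgeR ran from 0 to 36 higher and from 0 to 13 lower, highest in both directions without NC replicate 3 (8 lower without NC replicate 1). Summed levels by seed moved by less than their spread when rescaled to the listed microRNAs or with median-of-ratios scaling. No statement is made on these sums for the other alternatives. Arms with few reads, such as miR-93-3p and miR-106b-5p, have wide counting intervals.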
